A study of Homo sapiens with 21 samples.

Results

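Islet cells that lack ISL1 were set directly against islet cells that lack PDX1, gene by gene, with neither group given extra ISL1. The comparison uses 6 of the 21 libraries of the series: the 3 whose library name starts with ISL1-BFP and the 3 whose name starts with PDX1-BFP. Both groups were grown from H1, an established human embryonic stem cell line that was driven through a stepwise protocol towards pancreatic islets. The first group has the genotype ISL1-/- and the second PDX1-/-. On day 11 both were given a lentivirus that encodes the blue fluorescent protein BFP and nothing else, and RNA came from cells sorted for BFP on day 18. For reference, 2 WT libraries received the same BFP virus, and 3 PAX6-/- libraries did too. A further 3 ISL1-/- and 2 PDX1-/- libraries received a virus with ISL1 and BFP instead. They hold the same pair of genotypes, but the virus supplies the gene that ISL1-/- cells lack. They are therefore not a repeat of the comparison. The labels do not say whether each knockout line is 1 clone or which stretch of each gene was edited, and they give no differentiation date or batch. The remaining libraries are WT and PAX6-/- with the virus for ISL1 and BFP. The series calls the libraries of a group biological replicates. All 21 libraries share a single model, so each p-value draws on the spread within all 8 groups, not within the compared groups alone.

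ISL1 and PDX1 are homeodomain transcription factors. PDX1 is needed to form the pancreas and later keeps beta cells, the insulin-producing cells of the islet, in their state. ISL1 acts after cells have committed to the endocrine fate and is needed for the maturation and survival of alpha, beta, delta and PP cells, which make glucagon, insulin, somatostatin and pancreatic polypeptide. Homeodomain proteins of this kind bind DNA around the core letters TAAT.

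Levels are given as CPM, counts per 1000000 counts of the library after TMM scaling, for replicates 1, 2 and 3 of a group in that order. Differences are log2 fold changes, ISL1-/- minus PDX1-/-, with a standard error (SE). Adjusted p-values are from the quasi-likelihood test of edgeR with Benjamini-Hochberg adjustment over all 25884 genes tested, and a gene is called when its adjusted p is under 0.05. Where every library of a group has 3 counts or fewer for a gene, the fold was taken against 3 counts per library and is a lower bound. This floor covers counting error only. Coordinates are on GRCh38.

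The promoters of INS, GCG and SST, the genes of insulin, glucagon and somatostatin, are shown because all 3 were called, INS higher in ISL1-/- and the other 2 lower. Each is the 250 bases before the RefSeq start (GRCh38.p14), on the minus strand, 5′ to 3′, with TAAT or its reverse complement ATTA in capitals. They lie at chr11:2161210-2161459 for INS, chr2:162152248-162152497 for GCG and chr3:187670395-187670644 for SST.
INS: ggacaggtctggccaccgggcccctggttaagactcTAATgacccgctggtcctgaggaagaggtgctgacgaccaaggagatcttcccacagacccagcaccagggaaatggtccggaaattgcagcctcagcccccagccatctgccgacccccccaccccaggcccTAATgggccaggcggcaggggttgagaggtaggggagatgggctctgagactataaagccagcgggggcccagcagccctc
GCG: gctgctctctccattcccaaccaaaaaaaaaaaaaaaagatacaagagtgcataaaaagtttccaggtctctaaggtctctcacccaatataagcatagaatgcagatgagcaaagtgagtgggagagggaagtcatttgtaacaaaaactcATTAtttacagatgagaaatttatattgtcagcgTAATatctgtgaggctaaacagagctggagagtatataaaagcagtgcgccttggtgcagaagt
SST: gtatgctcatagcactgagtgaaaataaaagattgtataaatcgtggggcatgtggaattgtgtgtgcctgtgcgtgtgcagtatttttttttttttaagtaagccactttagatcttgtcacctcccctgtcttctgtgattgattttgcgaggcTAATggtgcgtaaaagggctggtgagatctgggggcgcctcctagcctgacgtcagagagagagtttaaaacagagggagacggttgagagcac
TAAT stood 214 and 81 bases before the start of INS and 94 bases before that of SST. GCG held ATTA at 98 and TAAT at 64 bases. Of 35116 promoter entries of the same length, 47.4% hold the motif on either strand, so the letters alone do not set these promoters apart.

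The second set of promoters belongs to 4 genes of cell division that were all higher in ISL1-/-. Here the capitals mark CCAAT or its reverse complement ATTGG, the CCAAT box, which is bound by the factor NF-Y. The windows are chr5:69166900-69167149 (plus strand), chr15:59104896-59105145 (plus strand), chr17:40417897-40418146 (minus strand) and chr10:128126424-128126673 (minus strand).
CCNB1: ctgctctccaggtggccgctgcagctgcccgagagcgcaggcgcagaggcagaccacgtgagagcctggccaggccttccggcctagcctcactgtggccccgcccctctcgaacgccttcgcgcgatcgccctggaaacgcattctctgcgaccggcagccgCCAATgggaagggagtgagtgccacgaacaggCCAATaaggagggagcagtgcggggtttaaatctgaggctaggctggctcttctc
CCNB2: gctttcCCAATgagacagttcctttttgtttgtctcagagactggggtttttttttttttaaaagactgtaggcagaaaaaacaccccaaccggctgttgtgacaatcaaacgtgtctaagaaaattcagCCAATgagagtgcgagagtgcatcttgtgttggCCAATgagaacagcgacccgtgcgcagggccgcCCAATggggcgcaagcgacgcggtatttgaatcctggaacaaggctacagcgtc
TOP2A: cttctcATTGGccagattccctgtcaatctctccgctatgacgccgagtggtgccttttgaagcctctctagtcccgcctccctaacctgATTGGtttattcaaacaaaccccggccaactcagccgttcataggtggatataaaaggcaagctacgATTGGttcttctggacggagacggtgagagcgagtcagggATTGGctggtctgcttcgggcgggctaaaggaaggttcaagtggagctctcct
MKI67: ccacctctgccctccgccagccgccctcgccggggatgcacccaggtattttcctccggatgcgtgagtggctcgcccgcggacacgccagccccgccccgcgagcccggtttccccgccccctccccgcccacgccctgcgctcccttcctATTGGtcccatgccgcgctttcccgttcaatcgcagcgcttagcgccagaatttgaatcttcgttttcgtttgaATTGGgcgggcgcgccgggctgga
CCNB1 and MKI67 held 2 copies each, and CCNB2 and TOP2A held 4 each. Of the 14 genes in the cell cycle list, 12 had an entry in the promoter table, and 11 of these held the motif, 9 of them in 2 or more copies. Among all 35116 entries, each counted singly, 32% held it and 9.53% held 2 or more copies. For a list gene with several entries, the entry with the most copies was taken, which can only raise the share of the list. These are matches of letters in a window and do not show binding.

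The 6 libraries held 46.5 to 60.2 M counts each (M, 1000000), with 1.3 to 1.84% of counts on mitochondrial genes and 33112 to 34887 genes detected. Across genes, log2 CPM values correlated at r = 0.984 to 0.988 within ISL1-/-, 0.985 to 0.987 within PDX1-/- and 0.967 to 0.973 between the groups. Each knockout was farther from WT than from the other knockout (0.955 to 0.965 for ISL1-/- and 0.952 to 0.963 for PDX1-/-). Genes are not independent replicates, and these values describe the libraries only.

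Neither targeted gene was called between the groups. ISL1 stood at 73.7, 74.6 and 82.4 CPM in ISL1-/- and at 153, 173 and 132 CPM in PDX1-/-, against 306 and 519 CPM in WT. The groups did not overlap, and the difference of -0.99 (SE 0.35) was not called (adjusted p = 0.125), although 6 of the 19 alternatives called it, with an adjusted p as low as 0.000503 in a fit on the 6 libraries alone. PDX1 was at 92.0, 81.6 and 104 CPM in ISL1-/- and at 103, 116 and 113 CPM in PDX1-/-, with 80.0 and 102 CPM in WT (difference -0.26, adjusted p = 0.576). PDX1 mRNA was thus no lower in the libraries labelled PDX1-/- than in WT. A count over a whole gene cannot see a small edit, so the level of PDX1 does not check its label. Against WT, ISL1 fell by 2.42 on the log2 scale in ISL1-/- (adjusted p = 0.00126) and by 1.43 in PDX1-/- (adjusted p = 0.0254, up to 0.282 with 1 library left out). PAX6, a paired-box factor of islet cells that was not edited in either group, had a difference of -0.36 (adjusted p = 0.729).

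Of the 25884 genes tested, 1313 (5.07%) were called: 707 (2.73%) were higher in ISL1-/- and 606 (2.34%) were higher in PDX1-/-. The libraries of the groups did not overlap for 1312 of the called genes, and for 38.8% of all genes tested. The median difference over all genes was -0.02, and the quartiles were -0.36 and 0.39. Among called genes the median size was 1.55 on the log2 scale. Past 2-fold there were 614 higher and 477 lower, and past 4-fold 217 higher and 172 lower. Against WT with BFP, the same fit called 1448 genes (5.59%) for ISL1-/-, 433 higher (1.67%) and 1015 lower (3.92%), and 2506 (9.68%) for PDX1-/-, 1043 higher (4.03%) and 1463 lower (5.65%). Those counts ranged from 459 to 883 and from 736 to 1714 with 1 library left out, lowest without WT replicate 1. In the direct comparison, leaving out ISL1-/- replicates 1, 2 or 3 left 535, 597 or 904 called genes, and leaving out PDX1-/- replicates 1, 2 or 3 left 823, 528 or 571. Leaving a library outside the comparison out of the shared model moved it to 2389 (PAX6-/- with ISL1, replicate 3) or 2442 (PDX1-/- with ISL1, replicate 2).

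**Figure D1:**
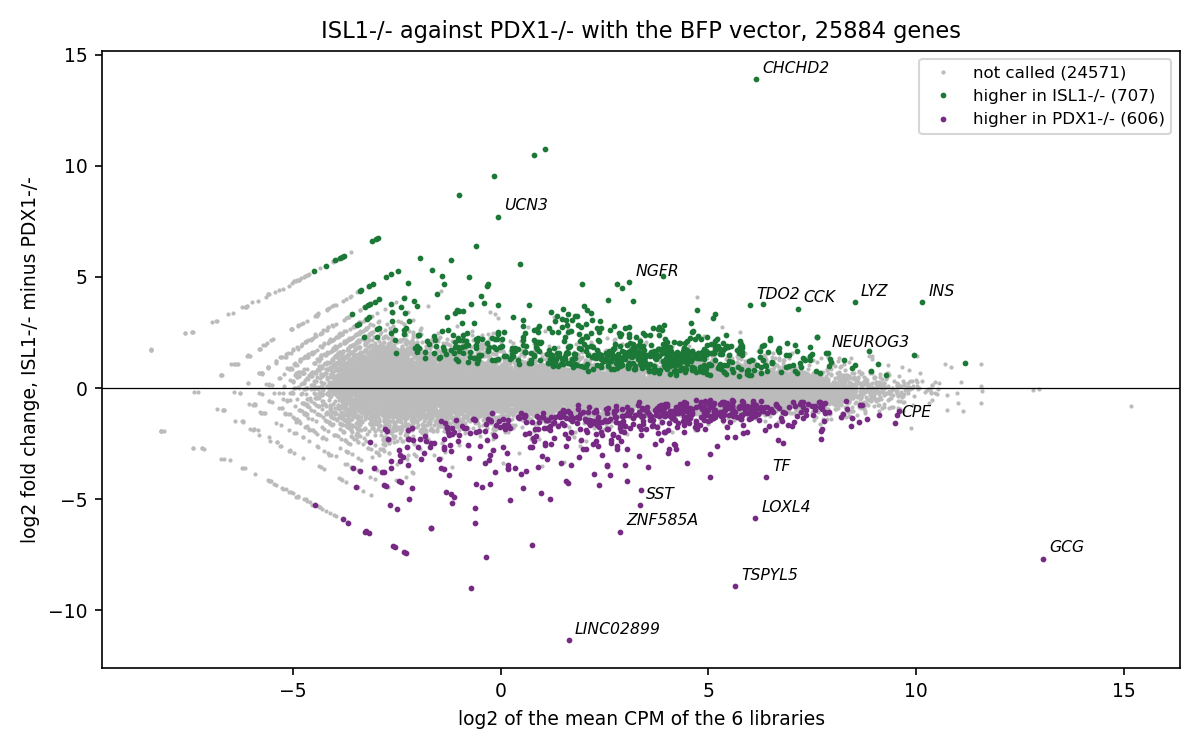
Each point is 1 of 25884 genes: log2 of the mean CPM over the 6 libraries on the horizontal axis and the fitted log2 difference, ISL1-/- minus PDX1-/-, on the vertical axis. Green marks the 707 genes called higher in ISL1-/- and purple the 606 called higher in PDX1-/-. CHCHD2 and GCG stand far from the other genes at their level, and the fitted difference of a gene at 0 in a group depends on the prior count.

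The islet hormone genes split between the knockouts. ISL1-/- islets held insulin mRNA and almost no glucagon, somatostatin or pancreatic polypeptide mRNA, and PDX1-/- islets held glucagon mRNA and little insulin mRNA. In RNA from a whole sorted pool, fewer cells of a type and less RNA per cell cannot be told apart. INS (insulin, ENSG00000254647.7, chromosome 11, 2159779 to 2161221, minus strand) was at 2252, 2392 and 1700 CPM in ISL1-/- and at 186, 163 and 87.5 CPM in PDX1-/-, against 7185 and 5651 CPM in WT. The lowest ISL1-/- library was far above the highest PDX1-/- library, and both knockouts were below WT in every library. The difference was 3.86 (SE 0.96, adjusted p = 0.0249). The call was lost without ISL1-/- replicate 1 or 2 and without any of the 3 PDX1-/- libraries (highest adjusted p 0.125). It held under every alternative that kept all 6 libraries.

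GCG (glucagon, ENSG00000115263.15, chromosome 2, 162142882 to 162152404, minus strand) was at 90.9, 74.2 and 85.3 CPM in ISL1-/-. In PDX1-/- it was at 14965, 19603 and 16280 CPM, and WT held 36245 and 51317 CPM. The 3 ISL1-/- libraries were close together and far below all others. The difference was -7.67 (SE 1.08, adjusted p = 0.000507), the largest among the hormone genes described here with counts above the floor in both groups. SST (somatostatin, ENSG00000157005.4, chromosome 3, 187668912 to 187670394, minus strand) was at 0.39, 0.572 and 0.56 CPM in ISL1-/- and at 26.3, 26.2 and 7.02 CPM in PDX1-/-, against 92.7 and 138 CPM in WT. PDX1-/- replicate 3 was the lowest of its group and still above every ISL1-/- library, and the difference was -5.28 (SE 0.91, adjusted p = 0.00254). PPY (pancreatic polypeptide) had 0, 0 and 1 counts in ISL1-/- and 1.66, 1.61 and 1.42 CPM in PDX1-/-, so it was at least 30.9-fold lower in ISL1-/- (adjusted p = 0.00364). The calls of GCG, SST and PPY held with every library left out in turn.

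Neither knockout had much IAPP, the amyloid peptide that beta cells release with insulin. It was under 1 CPM in all 6 libraries, against 8.24 and 7.92 CPM in WT, and its difference of -1.48 was not called (adjusted p = 0.449). GHRL, which encodes ghrelin, was at 40.9, 37.3 and 50.8 CPM in ISL1-/- and at 137, 145 and 83.4 CPM in PDX1-/-. These values did not overlap, but the difference of -1.50 (SE 0.53) was not called (adjusted p = 0.121). It was called under 8 of the 19 alternatives, DESeq2 among them.

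Set against WT, the knockouts differed in which hormone genes passed the test. In ISL1-/- GCG fell by 9.03 (adjusted p = 0.000211) and SST by 7.82 (adjusted p = 0.000258), while INS had a difference of -1.60 (adjusted p = 0.388). In PDX1-/- INS fell by 5.46 (adjusted p = 0.00361), while GCG had a difference of -1.37 (adjusted p = 0.417) and SST of -2.54 (adjusted p = 0.0612). IAPP fell in both, with -5.77 (adjusted p = 0.00196) in ISL1-/- and -4.29 (adjusted p = 0.00598) in PDX1-/-. These values share the 2 WT libraries. The 5 called ones kept their call when any library of their comparison was left out.

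Peptide hormones of the gut showed a split of their own. Of 11 genes of this list, 3 were higher in ISL1-/- and 1 was lower (2.73% and 2.34% of all genes were). GIP, an incretin of intestinal K cells, was at 14.3, 13.2 and 13.0 CPM in ISL1-/- and at 0.582, 0.59 and 0.415 CPM in PDX1-/- (difference 4.67, SE 1.01, adjusted p = 0.0115). CCK (cholecystokinin) was at 268, 252 and 263 CPM against 18.5, 28.5 and 18.8 CPM (difference 3.57, SE 0.88, adjusted p = 0.0235). WT held 30.9 and 52.3 CPM of GIP and 286 and 140 CPM of CCK, and neither gene was called between ISL1-/- and WT (adjusted p = 0.367 and 0.92). GAST (gastrin) was at 72.1, 75.4 and 38.7 CPM against 7.02, 8.43 and 5.51 CPM (difference 3.15, adjusted p = 0.0454). PYY (peptide YY, made with GCG in intestinal L cells) went the other way, with 0.814, 0.451 and 1.23 CPM in ISL1-/- and 18.2, 23.9 and 17.5 CPM in PDX1-/- (difference -4.57, SE 0.91, adjusted p = 0.00666). The call of GIP was lost without PDX1-/- replicate 2 or 3 (adjusted p up to 0.068), that of CCK without any 1 of the libraries other than ISL1-/- replicate 3 (up to 0.111), and that of GAST whichever of the 6 was left out (up to 0.17).

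**Figure D2:**
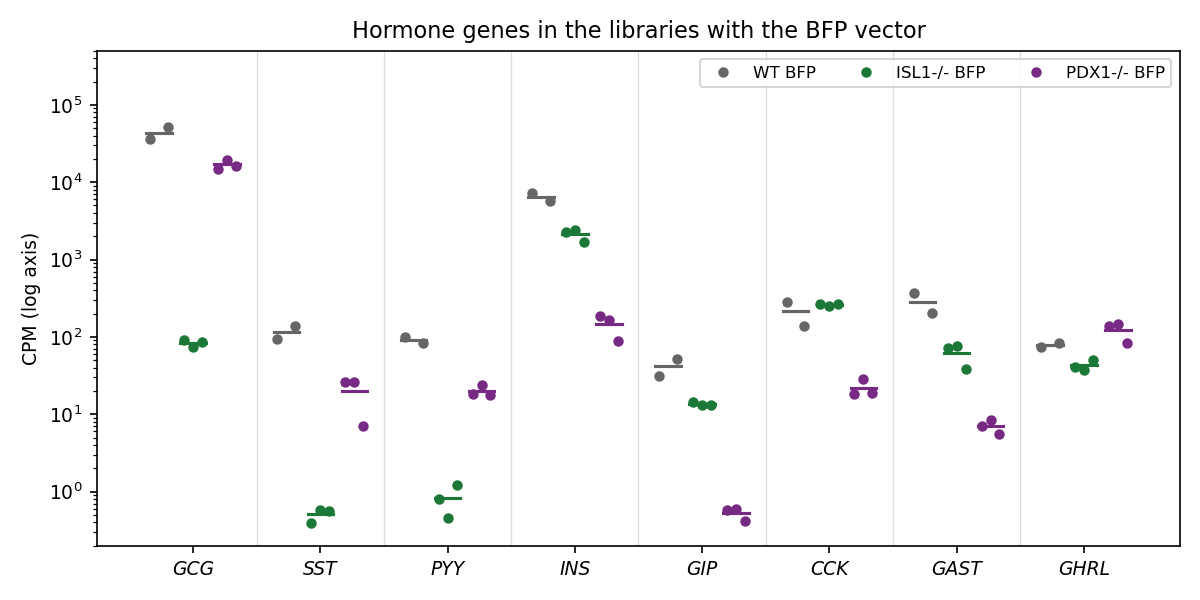
CPM on a log axis of 8 hormone genes in WT (2 libraries, grey), ISL1-/- (3, green) and PDX1-/- (3, purple) with the BFP vector. Points are libraries and lines are means. GCG, SST and PYY are low in ISL1-/-, and INS, GIP, CCK and GAST are low in PDX1-/-.

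Markers of the islet cell types did not move as blocks. Of 18 beta cell genes, 3 were higher in ISL1-/- (INS, SIX3 and UCN3), 1 was lower (SLC30A8) and the median difference was -0.28. Over all genes tested, 2.73% were called higher and 2.34% lower. UCN3, a peptide of mature beta cells that in human islets is also found in alpha cells, was at 1.98, 1.92 and 1.82 CPM in ISL1-/- and at 0 or 1 counts in PDX1-/-, at least 31.6-fold higher (adjusted p = 0.00723, 0.0536 without PDX1-/- replicate 2). SIX3, a transcription factor of adult beta cells, was at 2.71, 2.63 and 1.85 CPM against 0.332, 0.697 and 0.546 CPM (difference 2.18, SE 0.40, adjusted p = 0.00407). SLC30A8, the zinc transporter of the insulin granule, was at 46.9, 59.5 and 66.8 CPM in ISL1-/- and at 189, 180 and 183 CPM in PDX1-/-, against 376 and 442 CPM in WT (difference -1.67, SE 0.24, adjusted p = 0.000636). The beta cell factors NKX6-1 (-0.58, adjusted p = 0.383) and MAFA (-0.57, adjusted p = 0.692) were not called. The summed CPM of the list ran from 2983 to 3462 in ISL1-/-, from 1730 to 1871 in PDX1-/- and from 8392 to 9335 in WT. INS sets this order between the knockouts: the other 17 genes summed to 1017 to 1283 CPM in ISL1-/-, 1607 to 1708 CPM in PDX1-/- and 2150 to 2741 CPM in WT.

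Of 15 alpha cell genes, 3 were lower in ISL1-/- (GCG, LOXL4 and IRX2), where 2.34% of all genes were. None was higher, and the median difference was -0.40. LOXL4, a lysyl oxidase enriched in alpha cells, was at 1.63, 2.98 and 2.52 CPM in ISL1-/- and at 152, 147 and 114 CPM in PDX1-/-, against 74.3 and 105 CPM in WT (difference -5.85, SE 0.59, adjusted p = 1.8e-05). IRX2, an Iroquois homeodomain factor of alpha cells, was at 31.8, 30.8 and 39.4 CPM against 78.4, 80.8 and 76.1 CPM (difference -1.20, adjusted p = 0.0249, up to 0.115 with 1 library left out). TTR (transthyretin, abundant in alpha cells) was at 443, 392 and 418 CPM against 1420, 1614 and 1356 CPM and was not called (-1.81, adjusted p = 0.105).

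Of 8 delta cell genes, SST was lower and CASR higher (2.34% and 2.73% of all genes were). CASR, the calcium-sensing receptor, was at 19.2, 29.3 and 23 CPM in ISL1-/- and at 4.45, 2.5 and 4.28 CPM in PDX1-/- (difference 2.67, SE 0.55, adjusted p = 0.00857, 0.0628 without PDX1-/- replicate 2). WT held 151 and 119 CPM of CASR, and both knockouts were called below it. The difference from WT was -2.50 in ISL1-/- (adjusted p = 0.016, up to 0.113 with 1 library left out). In PDX1-/- it was -5.17 (adjusted p = 0.000207). HHEX, the delta cell transcription factor, was at 5.61, 6.03 and 3.58 CPM against 6.52, 6.68 and 3.58 CPM and was not called (-0.14, adjusted p = 0.866), with 26.3 and 27.9 CPM in WT. Of 6 epsilon and PP cell genes only PPY was called (5.07% of all genes were).

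Genes of enterochromaffin cells, the serotonin-producing cells that arise beside beta cells in such cultures, were in part higher than in WT in both knockouts. Of 7 genes, 4 were higher than WT in ISL1-/- (1.67% of all genes were) and 5 in PDX1-/- (4.03% of all genes were). Between the knockouts edgeR called 0 of 7, with 3 lower in ISL1-/- at an unadjusted p under 0.05. DESeq2 called 1 lower, and limma voom with quality weights called 1 higher and 5 lower. TPH1, the enzyme that starts serotonin synthesis, was at 141, 174 and 229 CPM in ISL1-/- and at 381, 495 and 475 CPM in PDX1-/-, against 29.2 and 56.6 CPM in WT. Its difference of -1.31 (SE 0.45) was not called (adjusted p = 0.11). SLC18A1, the monoamine transporter of these cells, was at 159, 167 and 230 CPM against 397, 414 and 416 CPM (-1.14, adjusted p = 0.132).

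Of 16 general endocrine genes, 2 were lower in ISL1-/- (SCG2 and CPE), where 2.34% of all genes were, and none was higher. A negative difference was found in 15, and the median was -0.74. CPE, the carboxypeptidase that trims prohormones, was at 324, 365 and 401 CPM in ISL1-/- and at 1003, 1193 and 1021 CPM in PDX1-/-, against 1122 and 1425 CPM in WT (difference -1.56, SE 0.27, adjusted p = 0.00246). SCG2 (secretogranin II, a granule protein) was at 425, 457 and 466 CPM against 937, 1225 and 942 CPM (-1.20, adjusted p = 0.0121, up to 0.071 with 1 library left out). The granule protein gene CHGA, at 23912, 23413 and 32938 CPM against 47477, 48918 and 43324 CPM, was not called (-0.80, adjusted p = 0.169). Nor was PCSK1, the convertase of proinsulin, with 80.9, 106 and 114 CPM against 309, 290 and 324 CPM (-1.62, adjusted p = 0.051). In the list of 9 prohormone processing and zinc genes the called ones were CPE and SLC30A8, both lower in ISL1-/-. Of 18 genes of insulin secretion, SYT13, a synaptotagmin, was the 1 called, at -0.82 (adjusted p = 0.0155, up to 0.0847 with 1 library left out). That is 5.56% of the list, near the 5.07% of all genes called.

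A few markers of earlier stages were higher in ISL1-/- than in PDX1-/-, while the endocrine progenitor list as a whole was split. NEUROG3, the factor that starts endocrine differentiation and is shut off as cells mature, was at 306, 317 and 391 CPM in ISL1-/- and at 139, 130 and 74.7 CPM in PDX1-/-, against 117 and 178 CPM in WT. The groups did not overlap, and the difference of 1.56 (SE 0.31) was called (adjusted p = 0.00685), also with each library left out. Against WT, NEUROG3 was not called in ISL1-/- (difference 1.20, adjusted p = 0.0582). The other 7 genes of the endocrine progenitor list were not called. The list had 4 positive and 4 negative differences and a median of -0.12. Limma voom called 1 of the list higher and 3 lower. Of 10 pancreatic progenitor genes, ONECUT1 (1.44, adjusted p = 0.00923) and the Notch target HES1 (1.05, adjusted p = 0.0349) were higher, where 2.73% of all genes were. ONECUT1 was at 22.6, 21.5 and 13.3 CPM against 5.94, 8.13 and 7.04 CPM, with 14.2 and 11.8 CPM in WT. HES1 was at 138, 101 and 92.0 CPM against 51.3, 53.0 and 55.4 CPM, with 99.4 and 82.1 CPM in WT. Against WT, ONECUT1 and HES1 were not called in ISL1-/- (0.55 and 0.29, adjusted p = 0.407 and 0.702). Nor were they in PDX1-/- (-0.89 and -0.77, adjusted p = 0.104 and 0.13). In the direct comparison the adjusted p rose to up to 0.0542 for ONECUT1 and 0.176 for HES1 with 1 library left out.

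Cofactors of LIM-homeodomain proteins such as ISL1 were the called members of the list of LIM complex and islet transcription factors. Of its 19 genes, 1 was higher and 2 were lower (2.73% and 2.34% of all genes were). LMO2, a LIM-only bridging protein, was at 1.59, 1.13 and 1.43 CPM in ISL1-/- and at 8.0, 8.06 and 7.89 CPM in PDX1-/-, against 39.5 and 51.3 CPM in WT (difference -2.53, SE 0.43, adjusted p = 0.00218). LDB2, a LIM-domain-binding adaptor, was at 2.96, 3.21 and 5.34 CPM against 14.9, 18.0 and 17.6 CPM (difference -2.13, SE 0.33, adjusted p = 0.00112). LMO3 was at 6.06, 9.32 and 7.96 CPM against 3.45, 2.88 and 3.06 CPM (difference 1.31, adjusted p = 0.0465, up to 0.177 with 1 library left out). LDB1, the main adaptor of ISL1, was not called (-0.12, adjusted p = 0.799).

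Most cell cycle genes were higher in ISL1-/- than in PDX1-/-. Of 14, 11 were higher in ISL1-/- and none was lower, against 2.73% of all genes called higher. In all 14 the libraries of the groups did not overlap, against 38.8% of all genes tested. The median difference was 1.59. The summed CPM of the list was 841 to 1181 in ISL1-/-, 351 to 444 in PDX1-/- and 527 to 784 in WT, so WT lay between the knockouts. CCNB1 (cyclin B1) was at 126, 115 and 88.9 CPM in ISL1-/- and at 43.8, 43.3 and 39.3 CPM in PDX1-/-, with 91.8 and 67.0 CPM in WT (difference 1.38, SE 0.27, adjusted p = 0.00593). CDK1, its kinase partner, was at 66.8, 63.7 and 48.5 CPM against 23.5, 20.3 and 17.9 CPM (1.54, SE 0.28, adjusted p = 0.00385). In both genes ISL1-/- replicate 3 was the lowest of its group and still above every PDX1-/- library.

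MKI67 (Ki-67, a marker of cycling cells) was at 65.4, 61.1 and 41.6 CPM against 20.4, 11.6 and 17.4 CPM (1.77, adjusted p = 0.0173). TOP2A (topoisomerase II alpha) was at 165, 180 and 123 CPM against 52.8, 44.7 and 45.8 CPM (1.71, adjusted p = 0.0447). The adjusted p rose to up to 0.103 for MKI67 and 0.167 for TOP2A with 1 library left out. E2F1, a transcription factor of the S phase programme, was at 31.6, 26.8 and 21.1 CPM against 10.3, 5.91 and 5.97 CPM (1.84, SE 0.33, adjusted p = 0.00316). Relative to the mean of WT, the median gene of the list stood at 0.71, 0.71 and 0.28 on the log2 scale in ISL1-/- and at -0.56, -0.94 and -0.95 in PDX1-/-. The WT libraries themselves lay 0.33 above and below their mean, and against WT edgeR called 0 of the 14 for ISL1-/- and 2 for PDX1-/-, both lower. The direct count of 11 went to 6 and 7 without ISL1-/- replicates 1 and 2, and to 6 and 5 without PDX1-/- replicates 2 and 3.

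**Figure D3:**
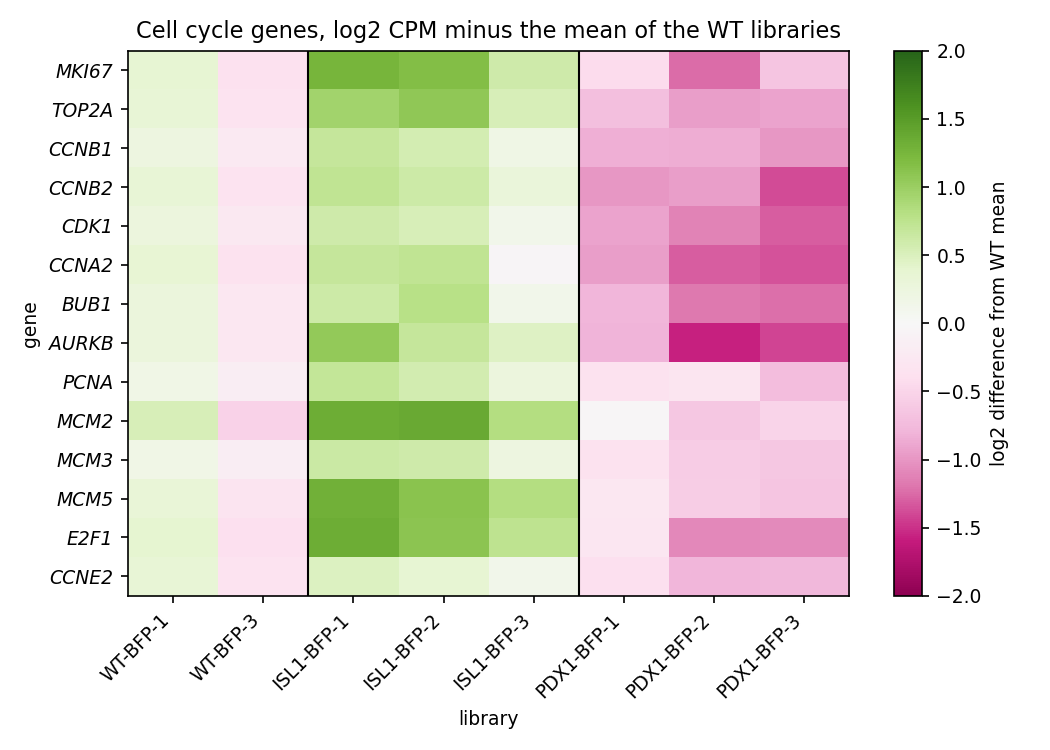
Log2 CPM of the 14 cell cycle genes (rows) minus the mean of the 2 WT libraries, in each library with the BFP vector (columns). Green is above the WT mean and pink below it. The medians are 0.71, 0.71 and 0.28 for ISL1-/- and -0.56, -0.94 and -0.95 for PDX1-/-.

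A pair of further lists, written after these values were seen, fill in the same process and are descriptions. Of 30 DNA replication genes, 19 were higher in ISL1-/- and none was lower, where 2.73% of all genes were higher. All 30 had a positive difference, and the median was 1.43. MCM5, part of the replicative helicase, was at 91.5, 80.6 and 65.4 CPM against 30.6, 25.1 and 23.8 CPM (1.58, SE 0.28, adjusted p = 0.00321). CDC45, which activates that helicase, was at 26.6, 25.2 and 20.6 CPM against 8.48, 5.54 and 4.72 CPM (1.95, SE 0.33, adjusted p = 0.00204). GINS4, another helicase subunit, was at 6.94, 6.22 and 6.08 CPM against 2.31, 1.21 and 1.33 CPM (1.99, adjusted p = 0.00311). Of 22 kinetochore genes, which tie chromosomes to the spindle, 12 were higher (2.73% of all genes were), with a median of 1.41. CENPF was at 84.1, 67.2 and 55.7 CPM against 21.4, 16.8 and 17.5 CPM (1.90, SE 0.34, adjusted p = 0.00311). The counts fell to 10 and 11 (replication) and 6 and 7 (kinetochore) without ISL1-/- replicates 1 and 2, and to 10 and 9, and 6 and 4, without PDX1-/- replicates 2 and 3.

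Of 25 genes of cholesterol synthesis and uptake, a list also written after the data were seen, 9 were lower in ISL1-/- and none was higher, where 2.34% of all genes were lower. All 25 had a negative difference, and the median was -0.93. Their summed CPM was 4165 to 4539 in ISL1-/-, 8204 to 8375 in PDX1-/- and 6113 to 6812 in WT. INSIG1, an endoplasmic reticulum protein that holds back cholesterol synthesis, was at 219, 176 and 199 CPM in ISL1-/-. In PDX1-/- it was at 503, 558 and 463 CPM (difference -1.36, SE 0.26, adjusted p = 0.00489). MSMO1, a sterol demethylation enzyme, was at 232, 248 and 264 CPM against 571, 715 and 664 CPM (-1.39, SE 0.26, adjusted p = 0.00438). Without a single library the count of 9 became 4, 5 and 6 (ISL1-/- replicates 1, 2 and 3) or 5, 5 and 6 (PDX1-/- replicates 1, 2 and 3).

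**Figure D4:**
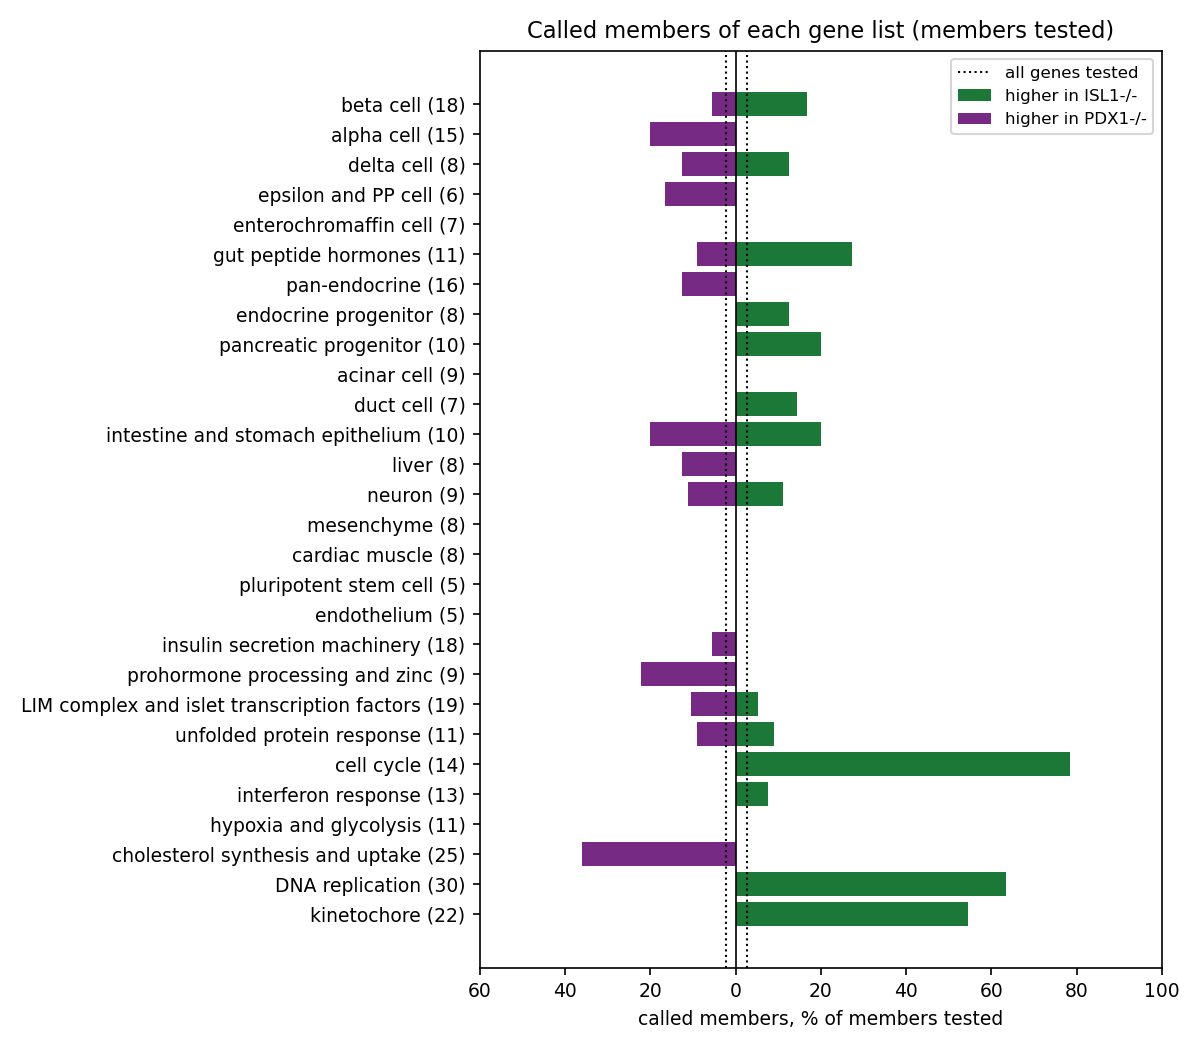
Share of the tested members of each gene list that were called higher in ISL1-/- (green, right) or higher in PDX1-/- (purple, left), with the number tested in brackets. Dotted lines mark the shares over all genes tested, 2.73% and 2.34%. The cell cycle, DNA replication and kinetochore lists reach farthest to the right (11 of 14, 19 of 30 and 12 of 22), and cholesterol synthesis and uptake farthest to the left (9 of 25).

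Markers of other cells that a sorted pool could hold ranged from absent to abundant. Of 8 cardiac muscle genes edgeR called 0, with 4 higher in ISL1-/- at an unadjusted p under 0.05 (DESeq2 called 2 and limma voom 3). Their summed CPM was 114 to 559 in ISL1-/-, with 559 in replicate 3, and 26.7 to 51.4 in PDX1-/-, and no gene of the list was at 3 counts or fewer in all 6. MYH6, an atrial myosin, was at 38.7, 50.6 and 185 CPM against 9.97, 15.5 and 22 CPM. GJA5, a gap junction protein of atrial muscle and arteries that the naming rule picked, followed the same libraries, with 4.32, 5.81 and 23.8 CPM in ISL1-/- and 0.644, 0.822 and 0.699 CPM in PDX1-/-. Its call (difference 3.96, adjusted p = 0.0385) was lost whichever of the 6 libraries was left out (up to 0.171). The part of cardiac cells in the results was not tested. Without ISL1-/- replicate 3 the cell cycle list had 9 of 14 called higher and the cholesterol list 6 of 25 lower. The cardiac sums of ISL1-/- replicates 1 and 2 (114 and 137 CPM) were also above every PDX1-/- library. Leaving out replicate 3 therefore does not remove the cardiac difference.

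Of 8 mesenchyme genes edgeR also called 0, with 1 higher at an unadjusted p under 0.05 and 1 called higher by each of DESeq2 and limma voom. The summed CPM was 805 in PDX1-/- replicate 1 and 90.6 to 361 in the other 5 libraries, and 211 to 1219 in WT. COL3A1 was at 501 CPM in PDX1-/- replicate 1 and at 45.7 and 41.8 CPM in replicates 2 and 3. The part of mesenchymal cells was not tested, and without PDX1-/- replicate 1 the cell cycle list had 8 of 14 called higher and the cholesterol list 5 of 25 lower. Acinar, pluripotent and endothelial genes also had 0 calls by edgeR (0, 1 and 1 higher at an unadjusted p under 0.05). DESeq2 called 0 of each, and limma voom called 0, 1 and 2. PNLIP and NANOG were at 3 counts or fewer in all 6 libraries, as was OLFM4 among the intestinal genes.

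Of 10 genes of intestine and stomach epithelium, CDX1 and FABP1 were higher in ISL1-/-, and TFF1 and SOX2 were lower (2.73% and 2.34% of all genes were). SOX2, a factor of stomach and of foregut, was at 12.4, 11.7 and 15.5 CPM against 33.5, 43.6 and 49.1 CPM, with 4.4 and 7.59 CPM in WT (-1.67, adjusted p = 0.0194). TFF1, a stomach trefoil peptide, was at 4.78, 4.06 and 2.47 CPM against 10.4, 14.2 and 12.1 CPM (-1.70, SE 0.35, adjusted p = 0.00859). CDX1, an intestinal homeodomain factor, was at 9.61, 9.64 and 3.02 CPM against 1.31, 0.161 and 0.262 CPM (3.69, adjusted p = 0.0417), and FABP1 differed by 2.37 (adjusted p = 0.0462). With 1 library left out the adjusted p reached 0.0961 for SOX2, 0.186 for CDX1 and 0.199 for FABP1.

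Among 8 liver genes, TF was called lower and no gene was called higher, although the other 7 had positive differences of up to 1.10. DESeq2 called 2 higher and 1 lower, and limma voom 6 higher and 1 lower. Their summed CPM was 9602, 8831 and 6723 in ISL1-/- and 4509, 3946 and 4507 in PDX1-/-, with 16252 to 18313 in WT, so the liver list was above the beta cell list in every one of these libraries. Like the cell cycle sum (1181, 1142 and 841 against 444, 366 and 351 CPM), it was lowest in replicate 3 within ISL1-/- and higher in every ISL1-/- than in every PDX1-/- library. The part of liver-like cells in the results was not tested. TF (transferrin, the iron carrier of plasma) was at 9.76, 10.3 and 9.32 CPM in ISL1-/- and at 163, 137 and 175 CPM in PDX1-/-, against 249 and 442 CPM in WT. Its difference of -4.01 (SE 0.28, adjusted p = 4e-07) was among the 4 with the smallest p in that direction. Duct genes summed to 1048 to 1222 CPM in ISL1-/- and 565 to 686 CPM in PDX1-/-. Of these 7 genes AQP1 was higher (2.52, adjusted p = 0.033), with 1.58, 2.48 and 8.03 CPM against 0.872, 0.447 and 0.787 CPM. Of 9 neuron genes POU4F1 was higher (1.45, adjusted p = 0.034) and ELAVL4 lower (-1.53, adjusted p = 0.0455), where 2.73% and 2.34% of all genes were. These calls were also lost with 1 library left out (adjusted p up to 0.205, 0.142 and 0.186).

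Stress and signalling lists are small and had varied shares of calls. These were 18.2% (unfolded protein response), 7.69% (interferon response) and 0% (hypoxia and glycolysis), against 5.07% of all genes. Of 11 genes of the unfolded protein response, HERPUD1 was higher (0.90, adjusted p = 0.0118) and TRIB3 lower (-1.11, adjusted p = 0.0232). Of 13 interferon response genes IFIT3 was higher (1.58, adjusted p = 0.00884), at 28.6, 24.4 and 18.0 CPM against 8.85, 7.81 and 7.06 CPM. With 1 library left out the adjusted p reached 0.0757 for HERPUD1, 0.12 for TRIB3 and 0.0554 for IFIT3. Against WT, HERPUD1 and IFIT3 were called lower in PDX1-/- (-1.13 and -1.89, adjusted p = 0.00308 and 0.00306). In ISL1-/- they were not called (-0.23 and -0.31, adjusted p = 0.646 and 0.73). TRIB3 was not called against WT in either knockout. Of 11 hypoxia and glycolysis genes edgeR called 0, with 3 higher at an unadjusted p under 0.05, DESeq2 called 0, and limma voom called 3 higher and 2 lower.

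A set of genes was at or near 0 in every library of a single knockout. CHCHD2 (ENSG00000106153.13, chromosome 7, 56101573 to 56106476, minus strand), a protein of the mitochondrial intermembrane space, was at 147, 132 and 142 CPM in ISL1-/-. In PDX1-/- it had 0, 0 and 1 counts, and in WT it was at 0.154 and 0.212 CPM. It was at least 2323-fold higher in ISL1-/- than in PDX1-/- (adjusted p = 4e-07), and the ISL1-/- libraries with the ISL1 vector held 131, 137 and 129 CPM. The 3 PAX6-/- libraries with BFP held 0 to 0.0179 CPM, so among the BFP libraries of the 4 genotypes only those of ISL1-/- held over 1 CPM. Its 10 annotated pseudogenes summed to 68 to 85 counts per library in ISL1-/- and 4 to 16 in PDX1-/-. Reads of near-identical copies could be split between them, which is small beside 7608 to 9155 counts of CHCHD2.

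In the other direction, LINC02899, a long noncoding RNA gene on chromosome 5 (23951348 to 24178263, plus strand), had 0 counts in all 3 ISL1-/- libraries and in all 3 ISL1-/- libraries with the ISL1 vector. It was at 6.15, 6.82 and 5.64 CPM in PDX1-/- and at 2.9 and 2.21 CPM in WT, so it was at least 123-fold lower in ISL1-/- (adjusted p = 3.11e-07). TSPYL5, a nucleosome assembly family gene, was at 0.319, 0.0866 and 0.218 CPM in ISL1-/- and at 103, 94.8 and 100 CPM in PDX1-/-, with 42.5 and 44.3 CPM in WT (difference -8.89, SE 0.82, adjusted p = 1.04e-05). ZNF596, a zinc finger gene, was at 0.0885, 0.0693 and 0.0467 CPM against 2.49, 2.22 and 2.14 CPM (-5.03, SE 0.36, adjusted p = 4e-07). In these 3 genes both WT libraries were above every ISL1-/- library.

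ZNF585A, a zinc finger gene on chromosome 19 (37106734 to 37172741, minus strand), was at 0.124, 0.26 and 0.109 CPM in ISL1-/- and at 14.0, 15.0 and 14.5 CPM in PDX1-/- (-6.45, SE 0.52, adjusted p = 2.52e-06). Its near-identical neighbour ZNF585B (37181579 to 37218153, minus strand) was higher in ISL1-/-, at 6.3, 6.08 and 5.94 CPM against 1.54, 1.27 and 1.4 CPM (2.12, SE 0.32, adjusted p = 0.000981). How reads shared by the pair were counted is not given in the sources used here, so the split between them is uncertain.

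By a count of at most 3 in every library of a group and at least 1 CPM on average in the other, 5 called genes were silent in ISL1-/- and 8 in PDX1-/-. The 5 were LINC02899, PLD5P1, PPY, MRC1 and ENSG00000286449, and 3 of them were also at 3 counts or fewer in every ISL1-/- library with the ISL1 vector. The 8 were CHCHD2, TRIM61, ENSG00000286456, BPIFB1, UCN3, ANGPT4, TUBAL3 and ENSG00000228999, chosen by this rule after the data were seen. TRIM61, a tripartite motif gene, had 0 counts in the 3 PDX1-/- libraries and in the 3 PAX6-/- libraries with BFP, and was at 4.02, 4.49 and 3.98 CPM in ISL1-/- and 2.97 and 4.38 CPM in WT. It was at least 68.8-fold higher in ISL1-/- than in PDX1-/- (adjusted p = 0.00107).

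**Figure D5:**
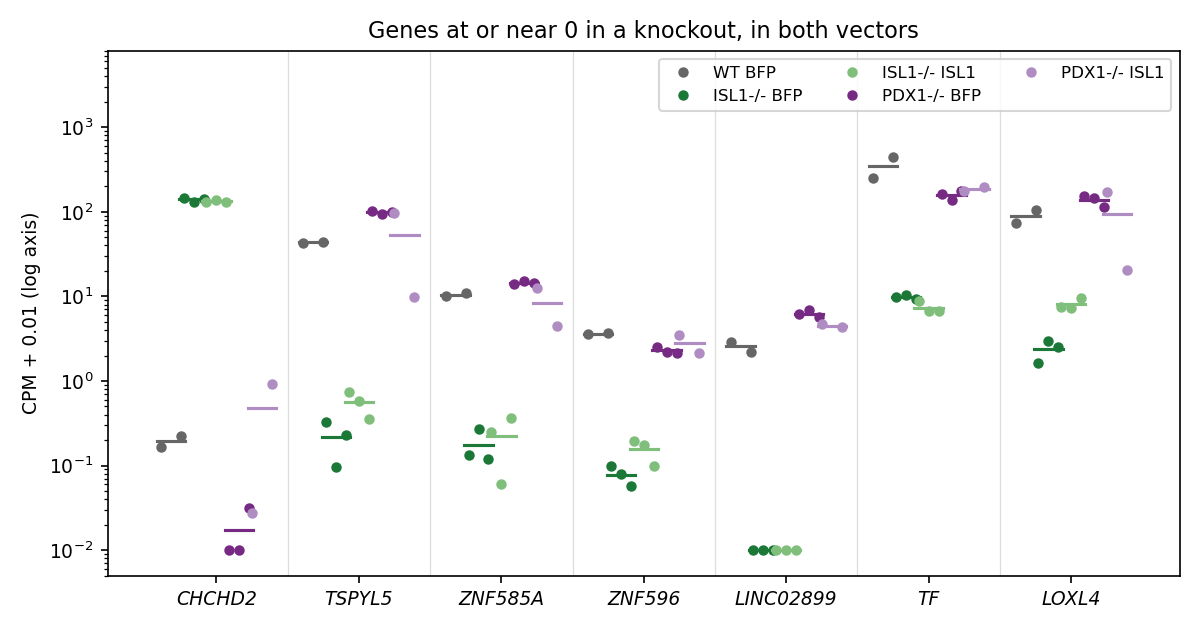
CPM + 0.01 on a log axis of 7 genes in WT, ISL1-/- and PDX1-/- libraries with the BFP vector and in both knockouts with the ISL1 vector; points are libraries and lines are means. CHCHD2 is high in the 6 ISL1-/- libraries alone. The other 6 genes are lower in those libraries than in every WT and PDX1-/- library shown.

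The naming rule also picked genes of no list. LYZ (lysozyme) was at 737, 789 and 532 CPM in ISL1-/- and at 35.6, 45.9 and 59.3 CPM in PDX1-/-, with 264 and 236 CPM in WT (difference 3.87, SE 0.38, adjusted p = 1.72e-05). TDO2 (tryptophan dioxygenase) was at 126, 135 and 96.7 CPM against 14.8, 6.07 and 6.05 CPM (3.73, SE 0.45, adjusted p = 0.000129). TNC (tenascin C, a matrix protein) was at 174, 176 and 94.1 CPM against 15.7, 4.9 and 12.0 CPM (3.77, adjusted p = 0.0114, up to 0.0735 without PDX1-/- replicate 2 or 3). WT held 203 and 143 CPM of TDO2 and 184 and 122 CPM of TNC, above every PDX1-/- library.

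NGFR and NEUROG1 were among the genes above WT in ISL1-/-. NGFR, the low-affinity neurotrophin receptor, was at 14.1, 14.2 and 21.0 CPM in ISL1-/- and at 1.39, 0.304 and 0.109 CPM in PDX1-/-, with 1.12 and 0.453 CPM in WT (4.77, SE 0.78, adjusted p = 0.00167). NEUROG1, a proneural factor related to NEUROG3, was at 13.0, 11.4 and 19.5 CPM against 1.35, 0.5 and 0.109 CPM, with 1.03 and 1.63 CPM in WT (4.48, SE 0.71, adjusted p = 0.00126). Against WT they rose by 4.36 (adjusted p = 0.00842) and 3.46 (adjusted p = 0.0158) in ISL1-/-, and these calls were lost without either WT library (up to 0.138 and 0.194), that of NEUROG1 also without ISL1-/- replicate 3. The noncoding RNA genes EPIST (3.90, adjusted p = 0.00203) and SMANTIS (2.71, adjusted p = 1.04e-05) were higher in ISL1-/- than in PDX1-/-. So was the secreted protein gene BPIFB1 (at least 44.6-fold, adjusted p = 3.08e-05). Against WT, EPIST, SMANTIS and BPIFB1 were not called in ISL1-/- (0.33, 0.25 and 1.62, adjusted p = 0.86, 0.681 and 0.0762). Each was called lower than WT in PDX1-/- (-3.57, -2.46 and -3.98, adjusted p = 0.00306, 0.000109 and 0.000809).

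Conversely, NKX3-2 and ADRB1 were above WT in PDX1-/-. NKX3-2, a homeodomain factor of stomach and spleen mesenchyme, was at 45.1, 61.4 and 80.4 CPM in PDX1-/-, at 3.49, 3.0 and 5.02 CPM in ISL1-/- and at 1.3 and 1.48 CPM in WT (difference -4.02, SE 0.61, adjusted p = 0.000981). ADRB1, the beta-1 adrenergic receptor, was at 14.2, 18.3 and 14.7 CPM in PDX1-/-, at 0.814, 0.936 and 0.871 CPM in ISL1-/- and at 1.08 and 0.846 CPM in WT (difference -4.17, SE 0.43, adjusted p = 2.53e-05). Against WT, PDX1-/- rose by 5.49 for NKX3-2 (adjusted p = 0.000538) and by 4.02 for ADRB1 (adjusted p = 0.000234). VEGFC, a lymphatic growth factor, was at 1.24, 0.763 and 0.855 CPM in ISL1-/- against 9.91, 9.81 and 12.7 CPM (-3.50, SE 0.34, adjusted p = 1.72e-05). TMEM236 (-3.91, adjusted p = 0.000346) and TINAGL1 (-3.57, adjusted p = 0.0005) completed the lower set.

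The same pair of genotypes could be compared in the libraries with the ISL1 vector, which the direct comparison does not use. That vector supplies the gene that ISL1-/- cells lack, so these libraries do not repeat the knockout comparison. Of their 2 PDX1-/- libraries, replicate 2 stood apart: it correlated with the PDX1-/- BFP libraries at r = 0.900 to 0.916, against 0.970 to 0.974 for replicate 1. It correlated more closely with the WT BFP libraries (0.945 and 0.946). Its closest match was the third PAX6-/- library with the ISL1 vector (0.948). Its values thus go against its genotype label in this respect, and each result on it is for the library labelled PDX1-/-. INS was at 164 CPM in replicate 1 and at 25612 CPM in replicate 2, TSPYL5 at 96.4 and 9.9 CPM, and TRIM61 at 0.123 and 2.79 CPM. In replicate 2 INS was also above both WT BFP libraries (7185 and 5651 CPM). Mitochondrial genes took 1.54% of counts in replicate 1, 3.84% in replicate 2 and 3.16% in that PAX6-/- library. What sets replicate 2 apart was not tested. With either PDX1-/- library left out, that group holds 1 library. ISL1-/- against PDX1-/- with the ISL1 vector had 750 genes called (2.9%), 150 higher and 600 lower. This count was 236 to 258 without an ISL1-/- library, 11409 without PDX1-/- replicate 1 and 458 without replicate 2, and 4113 with the third PAX6-/- ISL1 library out of the model.

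Of the 1313 genes called with BFP, 1118 (85.1%) had the same sign with the ISL1 vector, against 59.2% of all genes tested. Without PDX1-/- replicate 2 the shares were 92.5% (1214 genes) and 69.8%. CHCHD2 (8.28, adjusted p = 4.59e-05), LINC02899 (-10.86, adjusted p = 4.26e-07), TF (-4.66, adjusted p = 3.51e-07) and TSPYL5 (-6.60, adjusted p = 0.000122) were called there too. INS had a difference of -2.52 (adjusted p = 0.13), which became 3.77 without replicate 2. With 1 PDX1-/- library left there, only the size is given for single genes. GCG was at 2197, 2689 and 5362 CPM in ISL1-/- with the ISL1 vector and at 11659 and 106084 CPM in PDX1-/-. Its difference of -4.11 (adjusted p = 0.0263) became -1.77 without replicate 2. SST had a difference of -5.00 (adjusted p = 0.00554), and of -4.00 without that library. In ISL1-/- mean GCG was 83.5 CPM with BFP and 3416 CPM with the ISL1 vector. Mean SST there was 0.507 and 7.17 CPM. How far this shaped the differences was not tested. Of the 14 cell cycle genes 2 were called higher with the ISL1 vector (0.58% of all genes were), with a median of 1.31, and of the 25 cholesterol genes 3 were called lower (2.32% of all genes were), with a median of -0.87. These list values include replicate 2 of PDX1-/-. With it AURKB, MKI67, E2F1 and TOP2A of the cell cycle list differed by 0.18, 1.66, 1.72 and 1.82. Without it they differed by 1.77, 1.76, 1.47 and 1.24.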

How the data were processed

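RNA was sequenced from BFP-positive cells sorted on day 18, from SMART-Seq v4 cDNA and KAPA EvoPrep libraries (NovaSeq X instrument), as the labels' protocols state. The authors deposited raw read counts per gene. STAR 2.7.11b, featureCounts 2.1.1 and GRCh38 are named in the submitters' processing notes. The annotation release, the strand setting and how multi-mapping reads were counted are not given in the sources used here, so a gene and an overlapping or antisense gene cannot always be told apart. Of the table, 62699 genes were used, and 1 entry (ANK2), broken over 3 lines, was left out.

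All 21 libraries entered a single model of edgeR 4.0.16 in R 4.3.3, with TMM scaling, a coefficient per group and no block. Genes were kept by filterByExpr by group (minimum count 10, total 15), which left 25884. The common biological coefficient of variation was 0.334, and fold changes use a prior count of 0.125. The quasi-likelihood test was checked on simulated data. DESeq2 1.42.0 and limma 3.58.1 served as alternatives.

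Groups and replicate numbers came from the sample titles. The members and the gene lists were chosen with earlier results of these data known. Of the 257 genes in 25 lists, 253 were tested, and 10 are in more than 1 list. A further 3 lists were added after the data were seen. Named genes are ISL1, PDX1, PAX6, 6 hormone genes, and the 12 largest rises and 12 largest falls among called genes that average 10 CPM or more in the group where they are higher and whose libraries do not overlap. They also include up to 4 called members per list and the 4 smallest p-values in each direction. Genes outside this rule were chosen after their values were seen. For some genes, no result is given here. Promoters are from the RefSeq table, and motifs were searched on both strands of the 250 bases before each start.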

Additional observations from a re-analysis of the deposited data

Results flagged for a closer look

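The difference between ISL1-/- and PDX1-/- was itself tested between the vectors, BFP against ISL1, as a contrast of the same model. It was called for 91 of 25884 genes (0.352%), and for 7 of the named genes. Replicate 2 of PDX1-/- with the ISL1 vector stood apart from replicate 1, so each value is also given without it. That leaves 1 library in the group, so only the size of the difference is given there.

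INS differed by 3.86 with BFP and by -2.52 with the ISL1 vector, a difference of 6.39 (SE 1.35, adjusted p = 0.0496). Without replicate 2 the difference was 0.12. LYZ differed by 3.87 and 1.15, a difference of 2.72 (SE 0.51, adjusted p = 0.027), which was 2.15 without it. TDO2 differed by 3.73 and -0.60, a difference of 4.33 (SE 0.61, adjusted p = 0.00477), which was 3.02 without that library. SMANTIS differed by 2.71 and -0.58, a difference of 3.29 (SE 0.35, adjusted p = 0.000403), which was 2.90 without it.

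A further 3 genes were called. GAST differed by 3.15 and -3.65, a difference of 6.80 (SE 1.28, adjusted p = 0.027), which became 1.23 without replicate 2 of PDX1-/-. FABP1 differed by 2.37 and -2.50, a difference of 4.87 (SE 0.96, adjusted p = 0.0355), which became 1.19 without that library. BPIFB1 had fitted differences of 5.60 and 1.28, a difference of 4.32 (SE 0.75, adjusted p = 0.017), which became 3.20 without that library. BPIFB1 had 3 counts or fewer in each PDX1-/- BFP library, so its fitted values depend on the prior count.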

How the results depend on the processing

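The direction of every named gene that was called in ISL1-/- against PDX1-/- was kept under each of the 19 alternatives that gave it a value (18 for GCG and SST, which DESeq2 gave no adjusted p). Of 69 such genes, 37 kept their call in all of these, and the other 32 lost it without at least 1 of the 6 libraries. The call of IRX2, GAST, HES1, FABP1, ELAVL4 and TRIB3 was also lost with upper quartile factors, that of POU4F1 and SYT13 with no filter on low counts, and that of GAST, FABP1 and LMO3 with a block by title number. Of the genes not called, ISL1 was called under 6 alternatives, IAPP under 2 and GHRL under 8. The count of 1313 genes became 2267 with DESeq2 (1181 higher and 1086 lower), 7160 with limma voom and sample quality weights (3140 higher and 4020 lower), 5338 in a fit on only the 6 libraries and 5168 on the 11 BFP libraries. It became 2389 without library PAX6-ISL1-3 and 2442 without PDX1-ISL1-4 in the model. Leaving out 1 of the 6 gave 528 to 904. For ISL1-/- against WT the range was 459 to 883, for PDX1-/- against WT 736 to 1714, and for the ISL1-vector comparison 236 to 11409, with 4113 without PAX6-ISL1-3. Causes were not tested. Upper quartile factors moved the split to 830 higher and 565 lower, within 1.5 times the main count. The same-numbered libraries of the groups did not deviate together (r = 0.03, -0.06 and 0.07), so the numbers do not pair them. With a replicate block the count was 2983 (number in the description), 1538 (number in the title) and 4487 (fit on the 6 libraries). Depth limits the genes near the floor of 3 counts, whose folds are lower bounds.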

Other observations

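Some well-expressed called genes lie outside the lists and the naming rule; they were chosen after their values were seen, among those that kept their call with each of the 6 libraries left out. The homeodomain factor PITX1 was at 375, 308 and 293 CPM in ISL1-/- and at 69.0, 66.9 and 64.7 CPM in PDX1-/-, with 380 and 344 CPM in WT (difference 2.28, SE 0.41, adjusted p = 0.00314). The growth factor gene IGF2, which neighbours INS, was at 192, 170 and 154 CPM against 70.9, 54.8 and 57.9 CPM (1.49, SE 0.17, adjusted p = 8.29e-05). WT held 145 and 123 CPM of IGF2. In both genes every WT library was above every PDX1-/- library.

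KCNK16, a potassium channel of islet cells, was lower in ISL1-/-, at 161, 172 and 178 CPM against 441, 431 and 378 CPM, with 416 and 439 CPM in WT (-1.29, SE 0.19, adjusted p = 0.000638). SERINC2, a membrane protein gene, was at 527, 459 and 524 CPM against 1006, 1095 and 1026 CPM, with 448 CPM in both WT libraries (-1.05, SE 0.18, adjusted p = 0.00244). For KCNK16 every ISL1-/- library was below both WT libraries, and for SERINC2 every PDX1-/- library was above them.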
